A study of Mus musculus with 9 samples.

Results

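Suz12 depletion in mouse embryonic stem cells was described from 6 RNA sequencing libraries, 3 labelled Auxin and 3 labelled Mock, out of 9 in the series, and all 48440 genes of their count tables were considered. The libraries were chosen by their treatment label. Both groups were cells of the J1 line, an established embryonic stem cell line, in which Suz12 carries an auxin-inducible degron (genotype Suz12-AID), a tag through which the plant hormone auxin triggers destruction of the tagged protein. All were grown on gelatin in serum medium with LIF and the inhibitors PD0325901 and CHIR99021, which block MEK and GSK3 and hold cells in the naive state. Auxin cells were kept in 50 µM indole-3-acetic acid for 96 h. The labels do not say what the Mock cells received, and no untagged cells with auxin are among the samples. The action of auxin itself and the loss of Suz12 therefore cannot be told apart in any value below. Each group had 3 biological replicates, and the labels name no clone, date or batch. The remaining 3 libraries, taken after auxin was washed out, entered only the shared filter, scaling, length and GC trends, and estimate of the spread.

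The Suz12 protein holds together the catalytic core of Polycomb repressive complex 2, or PRC2. The complex methylates lysine 27 of histone H3 and keeps developmental regulators silent, mostly at CpG-rich promoters. Polycomb repressive complex 1 (PRC1) is recruited in part through that mark and in part without it. Embryonic stem cells without PRC2 are known to self-renew, and in them the mark matters most for genes that are off or barely on. The comparison asks which groups of genes move when the complex is depleted, and whether genes that were silent in Mock come on.

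The libraries held between 76587236 and 113931419 counts in Mock and between 63471903 and 76480171 counts in Auxin, where each mate of a read pair counts. After scaling, the typical replicate spread was small, with a common biological coefficient of variation of 9.15%. Log2 normalised counts correlated across genes with r between 0.988 and 0.994 within a group and between 0.932 and 0.944 between Mock and Auxin. The libraries also differed in how values followed transcript length. For 10171 expressed protein-coding genes, log2 normalised counts were taken as deviations from each gene's mean over all 9 libraries. Per doubling of exon length, these deviations changed by -0.25, -0.17 and -0.18 in the Mock libraries. In the Auxin libraries they changed by 0.15, 0.013 and 0.15. The slopes are therefore relative to the other libraries. The median log2 fold change of protein-coding genes ran from -0.26 in the shortest of 5 equal groups to 0.53 in the longest, and lay between -0.03 and 0.05 in each group once per-library trends with length and GC content were removed. This difference in length trend coincides with the groups, and its part in any single result was not tested. Medians with both trends removed are given beside those as used. The counting used no strand, so reads of overlapping genes cannot be told apart. Of the genes named below, P2rx3, Esrp1, Slc6a9, Lin28a, Bhlhe40, Bhlhe41, Tpi1, Atf5, Ppp1r15a, Cox6a2, Nkx1-2, Ccnd1, Hhip, Dnmt3l, Aldh1l2, Sycp3, Ddit3, Suz12, Nr1d1, Tk1, Sgsh, Notum, Ggps1, Cd180, Fdft1, Apol6, Abca3, Pou5f1, Gata6, Dnd1, Pcdhb22, Pcdhga8, Scd2, Aars and Yars share exon sequence with another gene, and their values are uncertain to that extent. Normalised read counts below are CPM, counts scaled to a common library size, after TMM scaling, and levels compared between genes are per kilobase of exon (RPKM).

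**Figure D1:**
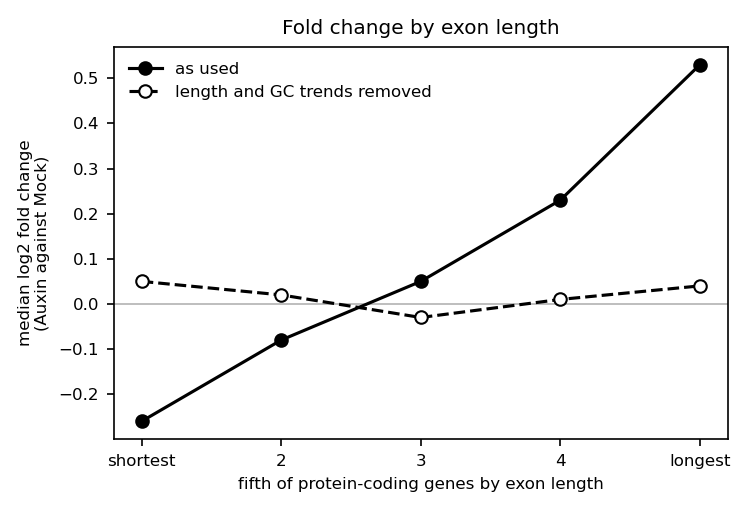
Median log2 fold change (Auxin against Mock) of tested protein-coding genes in 5 groups of equal size by exon length, from shortest to longest. Filled circles are the fit as used and open circles the fit with per-library length and GC trends removed. The filled circles climb from -0.26 to 0.53, and the open ones stay between -0.03 and 0.05.

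Suz12 itself gave no check of the labels, since the degron acts on the protein. Suz12 mRNA stood at 125.5, 136.2 and 137.5 CPM in the Mock libraries and at 149.8, 121.9 and 152.2 CPM in the Auxin libraries. The groups overlapped, and the log2 fold change of 0.09 (SE 0.080) did not pass (edgeR quasi-likelihood, adjusted p = 0.349). The value depended on the scaling, at 0.30 with library totals and -0.24 with length and GC trends removed, and both of those passed. It was 0.18 and passed without Auxin replicate 2. The cells were checked against stem cell markers. All 9 core pluripotency genes listed stood above 1 RPKM in both groups, as did 21 of 22 naive genes.

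Of 20838 genes with enough counts to test, 7996 were called higher in Auxin (38.4%) and 7261 lower (34.8%) at an adjusted p under 0.05. With so many calls, gene groups were read at a stricter rule that also asks for a 2-fold change, which 4134 genes met upwards (19.8%) and 2491 downwards (12.0%). Scaling by library totals alone, in place of TMM, shifted the centre of the fold changes, as a median over the tested genes, from 0.05 to 0.26 on the log2 scale and the share of higher genes among those called from 52.4% to 63.3%. Directions below are relative to TMM scaling. In a bulk sample, fewer cells of a type and less RNA per cell cannot be told apart.

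**Figure D2:**
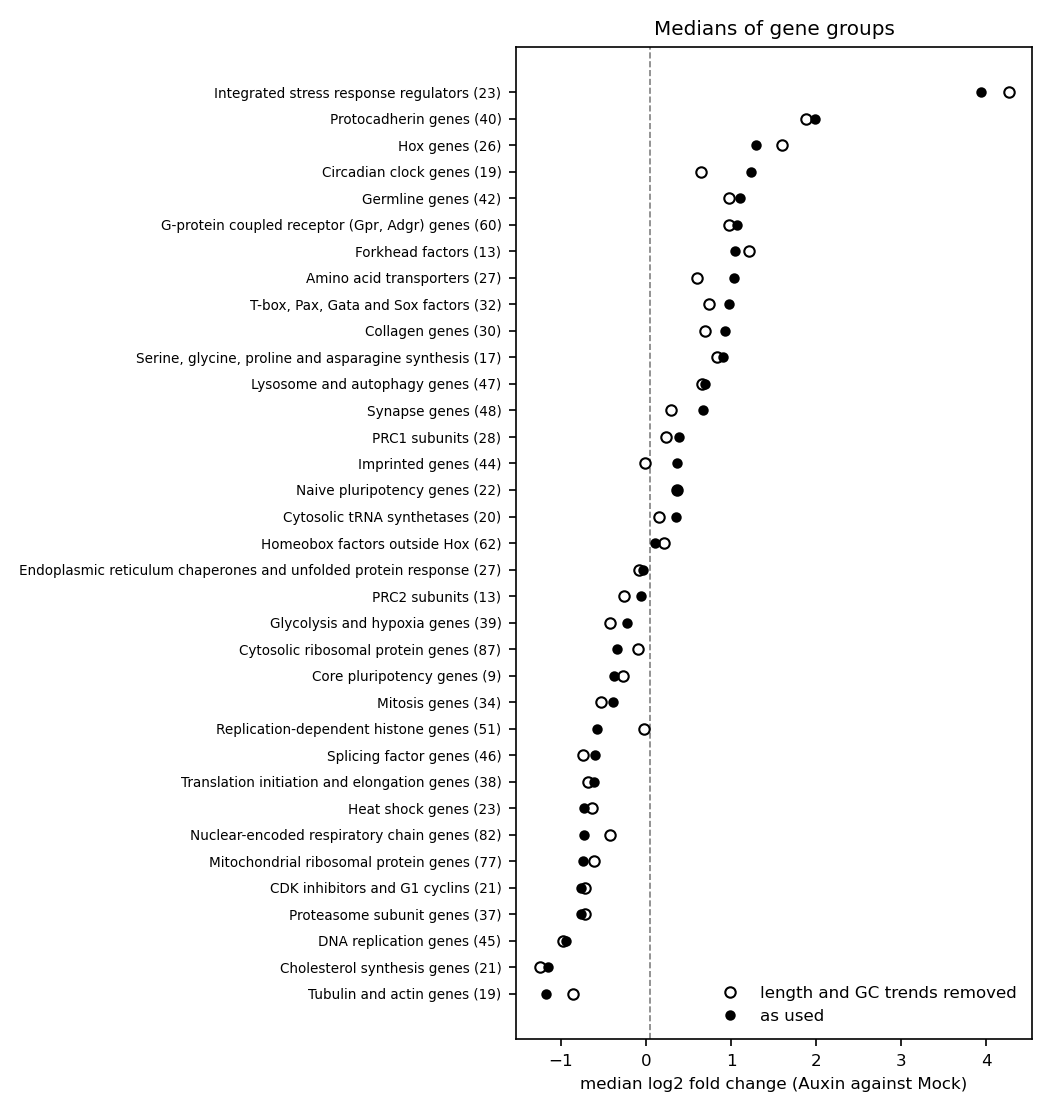
Median log2 fold change (Auxin against Mock) over the tested members of 35 gene groups, with the number tested in brackets. Filled circles are the fit as used, open circles the fit with length and GC trends removed, and the dashed line is the median of all 20838 tested genes (0.05). Integrated stress response genes lie far to the right at 3.94, and tubulin and actin genes (-1.18) and cholesterol synthesis genes (-1.15) lie furthest to the left.

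The integrated stress response rose as a whole. In that pathway, kinases that sense amino acid shortage, misfolded protein, haem lack or double-stranded RNA phosphorylate the initiation factor eIF2, which lowers general translation and favours the transcription factor ATF4. ATF4 and its partners then induce genes for amino acid supply and redox balance. All 23 listed regulators and targets were tested and all 23 were called higher, 20 of them by at least 2-fold, against 19.8% of all genes. Their median log2 fold change was 3.94, and 4.26 with length and GC trends removed. Like the other lists, this one was written with earlier results of these data known, so its shares are descriptions and not a test.

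Atf4 (ENSMUSG00000042406.7; mm10 chromosome 15, 80255184 to 80257540) stood at 255.1, 232.5 and 236.7 CPM in Mock and at 563.6, 675.2 and 553.5 CPM in Auxin. The groups did not overlap, and its log2 fold change was 1.31 (SE 0.077, edgeR adjusted p = 4.26e-08). Genes downstream of it moved much further. Ddit3, which encodes the partner factor CHOP, was at 6.57, 6.07 and 6.57 CPM in Mock and 66.5, 77 and 66.2 CPM in Auxin, a log2 fold change of 3.45 (SE 0.088). Trib3, a pseudokinase induced by ATF4 and CHOP, went from 13.1 ± 1.33 to 200.7 ± 13 CPM (mean ± SD, n = 3 each). Chac1, which degrades glutathione, went from 0.805 ± 0.161 to 64.7 ± 7.51 CPM. In each of these genes every Auxin library lay above every Mock library. Atf5 and Nupr1, both stress-inducible factors, rose by 3.93 and 5.51 on the log2 scale, and Ddit4, an inhibitor of mTORC1, rose by 4.81. Fgf21, a stress-induced hormone, had 0 counts in all Mock libraries and 0.732, 0.499 and 0.628 CPM in Auxin, at least 53.1-fold higher against a floor of 3 counts over the Mock group. The smallest rises of the list were those of Eif4ebp1 (0.30), Xpot (0.31, and 0.01 without passing once trends were removed) and Ppp1r15a (0.56).

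The promoters of this group are shown because some of them share a short sequence. C/EBP-ATF response elements, at which ATF4 binds with C/EBP partners, carry the letters TGATGNAA, where N is any base. Those letters were searched on both strands of the RefSeq promoter windows (GRCm38.p6; 250 bases before to 50 after the start), which matched 21 of the 23 genes. They stood in 7 of those 21 (33.3%), against 573 of 16425 promoters of protein-coding genes (3.49%). All 7 of these genes (Atf3, Chac1, Fgf21, Herpud1, Inhbe, Nupr1 and Trib3) were at least 2-fold higher in Auxin, as were 12 of the 14 without the letters. The stretches around the match are printed below for the 3 with the largest log2 fold change, in the direction of transcription, with the match in capitals. In all 3 it reads as the reverse complement. They lie at chr7:45615592-45615659 on the minus strand for Fgf21, chr10:127351992-127352059 on the minus strand for Inhbe, and chr2:119351019-119351086 on the plus strand for Chac1.
Fgf21: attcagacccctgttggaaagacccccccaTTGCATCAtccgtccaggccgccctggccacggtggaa
Inhbe: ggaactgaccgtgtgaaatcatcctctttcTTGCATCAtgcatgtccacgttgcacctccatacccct
Chac1: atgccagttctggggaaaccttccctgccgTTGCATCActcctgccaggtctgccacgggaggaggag

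Over all genes, the share of promoters with these letters was 3.52% among genes at least 2-fold higher, 1.82% among genes at least 2-fold lower and 2.05% among tested genes that were neither. A match describes the sequence and is not evidence of binding.

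Genes that supply amino acids were more often higher than lower. Of 17 genes for synthesis of serine, glycine, proline and asparagine, 11 were called higher and 5 lower, 7 and 2 of them by at least 2-fold, with a median log2 fold change of 0.90 (0.84 with trends removed). Asns, which makes asparagine, was at 499.6, 481.0 and 488.6 CPM in Mock and 1040.7, 1162.5 and 1038.3 CPM in Auxin. Aldh1l2, a mitochondrial folate enzyme, rose by 4.71 on the log2 scale and Gpt2, an alanine transaminase, by 2.80, while Psat1 in the serine branch rose by 0.95. Of 27 amino acid transporters, 14 rose and 3 fell by at least 2-fold, and with trends removed 10 rose and 3 fell. Slc6a9, a glycine transporter, rose by 4.50, Slc7a8, a carrier of neutral amino acids, by 4.10 and Slc38a3, a glutamine carrier, fell by 2.75.

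Cytosolic tRNA synthetases, which charge tRNAs with amino acids, split. Of 20 tested, 11 were called higher and 6 lower, with 3 in each direction by at least 2-fold. Sars rose from 137.9 ± 4.76 to 356.7 ± 35.0 CPM, whereas Kars fell from 361.2 ± 13 to 151.7 ± 15.1 CPM. The letters TGATGNAA stood in 5 of the 12 matched promoters of this list (Aars, Gars, Iars, Tars and Yars). None of those 5 genes rose or fell by at least 2-fold, and of the 7 without the letters 1 rose and 2 fell. Chaperones of the endoplasmic reticulum and regulators of the unfolded protein response did not move as a group: 12 of 27 were called higher and 12 lower, and the median of -0.04 became 0.17 under library totals. Hspa5, the main chaperone of that compartment, fell from 809.6 ± 20.9 to 464.4 ± 10.7 CPM. Heat shock genes were mostly lower, with 16 of 23 called lower, 9 by at least 2-fold, and 3 called higher. Fkbp4, a cochaperone of HSP90, fell by 1.68 on the log2 scale, and Hspa1b, an inducible HSP70, fell by 2.21.

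**Figure D3:**
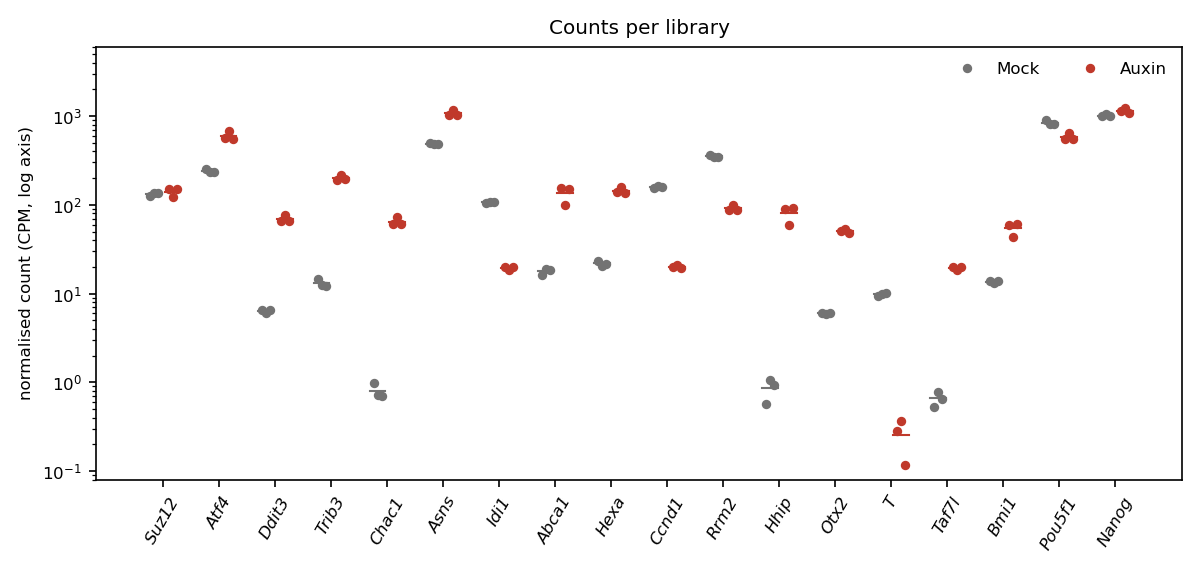
Normalised read counts (CPM, log axis) of 18 genes in the 3 Mock (grey) and 3 Auxin (red) libraries, each point being 1 library and each bar the mean of its group. In the genes shown other than Suz12 the 2 groups do not overlap, and Pou5f1 and Nanog move far less than Chac1, T or Ccnd1.

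Genes of cholesterol synthesis fell together. This pathway is switched on by the factor SREBP2 when sterols run low and off when they are plentiful. Of 21 listed genes, 20 were called lower and none higher, and 12 fell by at least 2-fold against 12.0% of all genes. The median log2 fold change was -1.15, and -1.25 with trends removed. Ggps1, whose product leads away from sterols, did not pass (0.19, edgeR adjusted p = 0.0948), and passed at 0.14 once trends were removed. Idi1 (isopentenyl diphosphate isomerase) was at 105.8, 107.8 and 107.6 CPM in Mock and 19.7, 18.6 and 20.0 CPM in Auxin. Dhcr7, which makes the last step to cholesterol, fell by 2.15 and Fdft1, which makes squalene, by 1.95. Genes for sterol sensing, uptake and export were mixed, with 11 of 21 called higher and 8 lower, 8 and 4 by at least 2-fold, and a median of 0.50 that was 0.11 with trends removed. Abca1, which exports cholesterol, stood at 16.3, 19 and 18.3 CPM in Mock and 153.8, 100.4 and 149.7 CPM in Auxin, with Auxin replicate 2 the lowest of the 3 and still above all of Mock. Soat2, which esterifies cholesterol for storage, rose from 0.803 ± 0.0903 to 14.5 ± 1.09 CPM. The lowest log2 fold change of this sensing, uptake and export list was -5.78 and the highest 4.18.

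A sterol response element of the form TCACNCCAC, at which SREBP factors bind, was found in 1 of the 16 matched promoters of the cholesterol list, that of Hmgcs1, against 1.18% of all promoters. No match says only that these letters are absent from the window. Hmgcs1, which makes the precursor of mevalonate, fell from 290.3 ± 3.01 to 114.0 ± 3.22 CPM. Its stretch lies at chr13:119690184-119690252 on the plus strand and is printed because it is the one match of the list.
Hmgcs1: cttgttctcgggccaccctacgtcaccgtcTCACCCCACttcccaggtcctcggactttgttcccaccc

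Fatty acid genes were mixed. Of 25 tested, 9 were called higher and 11 lower. Fasn, the fatty acid synthase, fell from 561.6 ± 13.5 to 167.1 ± 2.20 CPM and Scd2, a desaturase, fell by 2.15 on the log2 scale, while the elongase Elovl7 rose by 2.33. Lysosome and autophagy genes rose: 33 of 47 were called higher and 7 lower, 19 rose and none fell by at least 2-fold, and the median was 0.69 (0.66 with trends removed). Hexa, a lysosomal hexosaminidase, was at 23.2, 20.7 and 21.8 CPM in Mock and 138.6, 158.9 and 137.6 CPM in Auxin. Naglu and Sgsh, which break down heparan sulfate, rose by 2.88 and 2.23. The letters CACGTG, an E-box read by TFEB, MYC and other helix-loop-helix factors, stood in 14 of 37 matched lysosomal promoters (37.8%) against 8.11% of all promoters. Of those 14 genes 7 rose at least 2-fold, and of the 23 without the letters 9 did.

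Genes of the cell cycle were lower, chiefly those of G1 and S phase. None of 45 DNA replication genes was called higher and 41 were called lower, 18 of them by at least 2-fold, with a median of -0.94 (-0.97 with trends removed). Rrm2, a subunit of ribonucleotide reductase, was at 361.9, 345.6 and 348.9 CPM in Mock and 86.9, 99.1 and 87.3 CPM in Auxin. Tk1, a thymidine kinase, fell by 2.63 and Cdc6, which loads the replicative helicase, by 2.05. Among 21 CDK inhibitors and G1 cyclins 14 were called lower and 6 higher. Ccnd1, cyclin D1, was at 153.3, 164.0 and 159.4 CPM in Mock and 19.7, 21.1 and 19.4 CPM in Auxin, a log2 fold change of -2.98 (SE 0.057). Ccne1, cyclin E1, fell by 2.54. Cdkn1a, the CDK inhibitor p21, rose from 110.7 ± 3.67 to 207.3 ± 22.1 CPM, whereas Cdkn2b, an inhibitor whose locus is a known Polycomb target, did not pass (0.14, edgeR adjusted p = 0.332) but passed at 0.54 once trends were removed (edgeR adjusted p = 0.000771), and its neighbour Cdkn2a fell by 0.52 (-0.04, not passing, once trends were removed). Mitosis genes fell less, with 20 of 34 called lower but 2 by at least 2-fold and a median of -0.39.

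Housekeeping synthesis was lower across several complexes. Of 77 mitochondrial ribosomal protein genes 74 were called lower and 1 higher (median -0.74, and -0.61 with trends removed), and of 37 proteasome subunits 35 were called lower and 1 higher (median -0.76). Splicing factors (36 of 46 lower, median -0.60), translation initiation and elongation factors (28 of 38, median -0.61) and nuclear pore genes (23 of 27, median -0.43) followed. None of the tested members of these 5 lists was at least 2-fold higher. Mrps12 of the small mitochondrial ribosomal subunit fell from 61.2 ± 4.98 to 13.2 ± 0.8 CPM. Eif5a, a translation factor that carries hypusine, fell from 1262.3 ± 78.8 to 457.0 ± 69.8 CPM. Tubulin and actin genes had the lowest median among lists with at least 10 tested members, -1.18 (-0.86 with trends removed and -0.73 without genes that share exon sequence), with Tuba1a down from 389.0 ± 21.5 to 84.7 ± 8.57 CPM.

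Other complexes moved more when length and GC trends were removed. Nuclear-encoded respiratory chain genes had 68 of 82 called lower, but the number lower by at least 2-fold went from 18 to 9 and the median from -0.73 to -0.42 when trends were removed. Cytosolic ribosomal protein genes had a median of -0.34, which became -0.09, and replication-dependent histone genes went from -0.57 to -0.02. The histone median was -0.27 without Mock replicate 1. Of 39 glycolysis and hypoxia genes 21 were called lower and 12 higher, 12 and 5 by at least 2-fold. Ldha, lactate dehydrogenase A, fell from 642.2 ± 32.8 to 73.4 ± 9.52 CPM, the largest fall of that list. Tpi1, a glycolytic isomerase, fell by 2.03, and 18 of 25 genes of the tricarboxylic acid cycle were called lower and 2 higher.

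Genes were then divided by their level in Mock, which addresses how far silent genes came on. Of 21683 protein-coding genes, 8622 were silent in Mock (mean under 0.1 RPKM), 3090 low (0.1 to 1), 5506 mid (1 to 10) and 4465 high (10 RPKM or more). At least 2-fold rises were met by 1014 silent genes (11.8% of the class), 1071 low genes (34.7%), 851 mid genes (15.5%) and 112 high genes (2.51%), and at least 2-fold falls by 93, 417, 399 and 683 genes (15.3% of high genes). Of the silent genes 1764 had enough counts to be tested, and these passed the filter largely through Auxin, so their own share is not used.

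Since a class cut on the same Mock values favours rises at its low end, the classes were also set from Mock replicate 1 alone and the ratio taken from the other libraries, with 0.1 RPKM added to both sides. Low genes then rose at least 2-fold in 29.4% and fell in 6.93%, and high genes rose in 2.39% and fell in 13.9%. For silent genes the share that rose was 5.11%. The added 0.1 RPKM leaves these genes almost no room to fall 2-fold, so their falls are not read. Classes cut on Auxin levels gave a near balance at the bottom, where 357 genes silent in Auxin were called at least 2-fold higher and 343 lower, while low genes still rose in 35.6% and fell in 11.5%. High genes by Auxin level were also near balance, with 389 higher (8.71%) and 449 lower (10.1%), so the lean of high genes towards falls depended on which group set the classes.

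**Figure D4:**
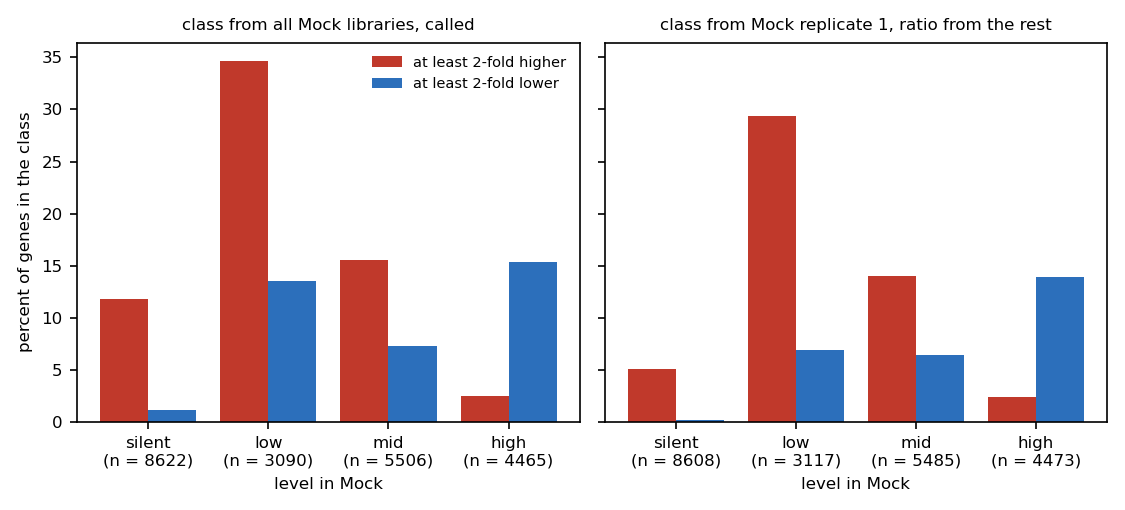
Left, percent of protein-coding genes of each Mock level class that were called and at least 2-fold higher (red) or lower (blue) in Auxin, with class sizes under the bars. Right, the same shares with the class set from Mock replicate 1 and the ratio from the other libraries (0.1 RPKM added to both sides), with no test. In both panels rises peak in the low class and falls in the high class.

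Few silent genes reached a level usually read as expression. Of the 8622 silent genes 7550 stayed under 0.1 RPKM in every Auxin library, and 16 stood at 1 RPKM or more in every Auxin library (0.186%). In the reverse direction 8180 genes were silent in Auxin and 7 of them had stood at 1 RPKM or more in every Mock library. The 8 highest of the 16 were Hhip, Adm2, Inhbe, Vldlr, Ptgs2, Cox6a2, P2rx3 and Pcdhga8. Hhip (ENSMUSG00000064325.4; chromosome 8, 79965851 to 80058006), an inhibitor of Hedgehog ligands and a known Polycomb target, stood at 0.573, 1.07 and 0.923 CPM in Mock and at 89.3, 59.4 and 92.3 CPM in Auxin, or 8.85 ± 2.01 RPKM. Adm2, Inhbe and Vldlr are 3 of the 4 integrated stress response genes that were silent in Mock. Ptgs2, the inducible cyclooxygenase, went from 0.288 ± 0.180 to 21 ± 5.46 CPM and P2rx3, an ATP-gated channel, from 0.202 ± 0.0353 to 6.49 ± 0.287 CPM. Without genes that share exon sequence with another, 9 were left of the 16. The number also depends on the level called silent, with 5 genes at a limit of 0.05 RPKM and 267 at 0.5 RPKM. The 7 genes that went silent were Teddm3, Apol6, Cd180, Vash2, Foxr2, Muc3 and C1ql1. Apol6, of the apolipoprotein L family, was at 7.24, 6.70 and 6.13 CPM in Mock and at 0.110, 0.0918 and 0.0876 CPM in Auxin, and Cd180, a Toll-like receptor homologue, fell by 4.02 on the log2 scale.

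**Figure D5:**
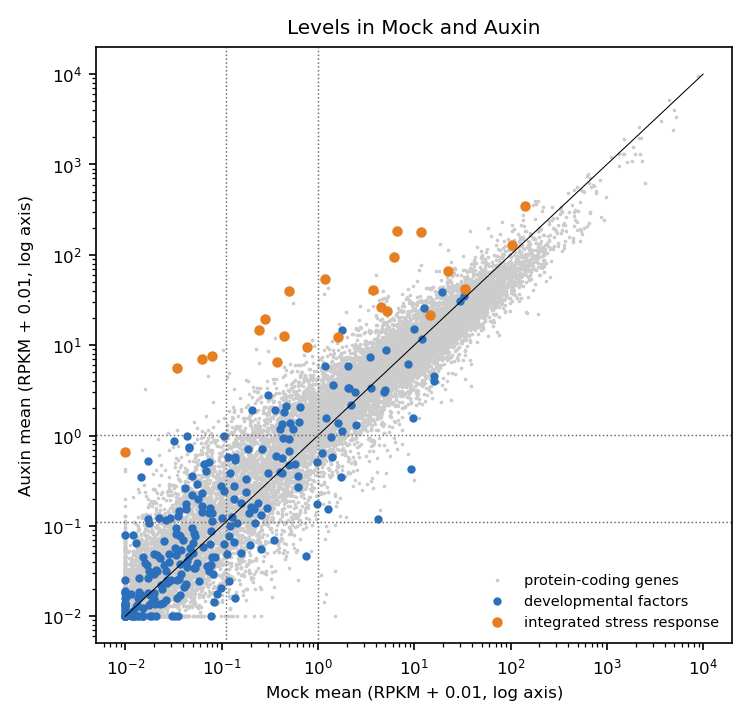
Mean level in Auxin against mean level in Mock (RPKM, both axes log after adding 0.01) of protein-coding genes (grey), with 23 integrated stress response genes (orange) and 261 developmental transcription factors (blue) marked. Dotted lines mark 0.1 and 1 RPKM. The 171 blue points that were silent in Mock all stay below 1 RPKM in Auxin, while 3 of the 4 orange points silent in Mock lie above it.

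Developmental transcription factors are the classical targets of Polycomb repression, and most of those listed were silent in Mock. None of the 24 Hox genes silent in Mock, the 65 other homeobox genes, the 18 forkhead genes, the 29 T-box, Pax, Gata and Sox genes or the 35 basic helix-loop-helix genes silent in Mock reached 1 RPKM in every Auxin library. Rises of at least 2-fold were met by 9, 13, 3, 9 and 2 of them, in that order, against 11.8% of all silent genes. The basic helix-loop-helix genes lay below that share and the other 4 groups above it, forkhead genes with only 3 of 18. The share of all silent genes is lowered by 1388 silent olfactory and vomeronasal receptors, of which 8 rose. The Hox genes, which set position along the body axis, had 26 of 39 members tested. Of all 39, 16 were at least 2-fold higher and none lower, 9 of the 24 that were silent in Mock and 7 of the other 15. Hoxd9 was at 0.0388, 0.0483 and 0.056 CPM in Mock and 1.74, 1.78 and 1.99 CPM in Auxin, which is 0.861 ± 0.061 RPKM. Every Auxin library lay above every Mock library, and their mean stayed below 1 RPKM. Genes of the Hoxc cluster were already expressed in Mock and moved less, with Hoxc13 up by 0.78 and Hoxc4 down by 0.67 on the log2 scale. Hoxd13, at the end of the Hoxd cluster, did not pass (-0.08).

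Among the other families direction depended on the gene. Of 45 T-box, Pax, Gata and Sox factors 32 were tested, and 14 were at least 2-fold higher and 4 lower (13 and 7 with trends removed). Sox6, a factor of neural, muscle and cartilage development, went from 0.109 ± 0.0217 to 7.67 ± 1.66 CPM and the cardiac factor Tbx5 rose by 6.22. T, the mesoderm factor brachyury (ENSMUSG00000062327.10; chromosome 17, 8434423 to 8442496), went the other way, with 9.47, 9.91 and 10.1 CPM in Mock and 0.281, 0.367 and 0.117 CPM in Auxin. Homeobox genes outside the Hox clusters were split evenly, 21 called higher and 19 lower. Otx2, an early factor of formative and anterior fate, stood at 5.97, 5.92 and 6.11 CPM in Mock and at 50.9, 53 and 47.9 CPM in Auxin. Nkx1-2, a factor of caudal epiblast, fell by 4.47 and Cdx2, a caudal and trophoblast factor, by 4.32. Of 26 forkhead factors 13 were tested, with 8 called higher and 1 lower, and Foxi3, a factor of ectodermal placodes, rose by 2.35. Of 19 tested proneural and related helix-loop-helix factors 7 were called higher (36.8%) and 5 lower (26.3%), both under the 38.4% and 34.8% of all tested genes.

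Promoter sequence was compared across these classes, since PRC2 is known to favour CpG-rich promoters. A window was called CpG-rich at a GC content of at least 0.55 and a ratio of observed to expected CpG of at least 0.65, which 40.2% of 16425 promoters met. The share was 32.2% among 761 silent genes that rose at least 2-fold and 8.04% among 5460 genes that were under 0.1 RPKM in all Auxin libraries as well. Silent genes that had enough counts to be tested and did not rise 2-fold held 27.8%. Among low genes the share was 53.6% in those that rose, 25.4% in those that fell and 40.7% in the class. Among mid and high genes it was 68.3%, 50.0% and 62.8%. The promoters of 2 genes that came on are printed as examples, Hhip as the highest with a CpG-rich window (30 CpG sites) and Adm2 as the highest without one (7 sites), with each CG in capitals. They lie at chr8:80057959-80058258 on the minus strand and chr15:89322470-89322769 on the plus strand. Of 12 such genes with a matched window, 5 were CpG-rich.
Hhip: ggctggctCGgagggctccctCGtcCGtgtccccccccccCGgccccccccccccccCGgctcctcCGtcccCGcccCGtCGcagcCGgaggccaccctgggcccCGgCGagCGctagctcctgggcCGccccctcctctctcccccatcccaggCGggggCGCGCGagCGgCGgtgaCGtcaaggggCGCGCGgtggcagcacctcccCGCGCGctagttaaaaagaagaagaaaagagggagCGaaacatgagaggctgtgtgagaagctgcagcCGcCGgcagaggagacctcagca
Adm2: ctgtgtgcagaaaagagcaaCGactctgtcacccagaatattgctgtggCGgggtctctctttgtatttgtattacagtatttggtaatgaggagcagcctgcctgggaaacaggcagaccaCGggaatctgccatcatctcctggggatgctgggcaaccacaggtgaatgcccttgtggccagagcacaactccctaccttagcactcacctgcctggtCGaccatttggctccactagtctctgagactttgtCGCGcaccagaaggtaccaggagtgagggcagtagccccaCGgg

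Core stem cell markers were mostly lower and stayed expressed. Of 9 core pluripotency genes 6 were called lower and 2 higher, 3 and 1 by at least 2-fold, and their summed levels were 1752.6 to 1865.0 RPKM over the Mock libraries and 1485.0 to 1624.0 RPKM over the Auxin libraries. Pou5f1, which encodes the core pluripotency factor OCT4, was at 910.8, 814.7 and 805.5 CPM in Mock and 551.0, 639.2 and 558.9 CPM in Auxin, a fall of 0.53 on the log2 scale (edgeR adjusted p = 5.24e-05). Sox2, another core factor, rose by 1.00. Nanog rose by 0.19, a call lost without Mock replicate 1 or 3 (0.16 in both). Naive genes had 14 of 22 called higher and 5 lower, with Klf4, Klf5 and Prdm14 up by 0.80, 1.61 and 1.68. Lin28a, an RNA-binding regulator of let-7, fell by 1.82 and Utf1, a chromatin factor of stem cells, by 1.03. Formative and primed genes had 9 of 18 called lower and 4 higher. Summed levels of naive markers were 2174.3 to 2310.0 RPKM over the Mock libraries and 2299.5 to 2514.4 RPKM over the Auxin libraries.

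Summed marker levels of other cell types differed in direction. Such sums follow the few members that are well expressed and are not shifts of whole lists. The 18 early mesoderm genes summed to between 75.1 and 92.6 RPKM in Mock and to between 30.7 and 36.2 RPKM in Auxin. Only 5 of them had a Mock mean of 1 RPKM or more, and Lefty2 alone went from 50.9 to 15.7 RPKM. Of 13 tested, 6 were called lower and 4 higher. In Mock 4 of 20 neural progenitor, 10 of 27 trophoblast, 4 of 20 fibroblast and 6 of 26 primitive endoderm genes reached that mean. The 20 neural progenitor genes went from between 97.8 and 106.4 to between 70.6 and 82.1 RPKM. Trophoblast genes summed to between 103.3 and 110.2 RPKM in Mock and to between 104.8 and 115.7 RPKM in Auxin, fibroblast genes to between 124.6 and 128.1 and between 147.4 and 157.3 RPKM. Of 22 tested primitive endoderm genes 13 were called higher and 4 lower, 9 and 4 by at least 2-fold (6 and 4 with trends removed). They summed to between 306.3 and 329.8 RPKM in Mock and between 333.8 and 374.4 RPKM in Auxin. Of its defining factors, Gata4 rose from 0.435 to 1.80 RPKM on average, while Gata6 went from 0.052 to 0.131 RPKM and stayed near silence. Of 12 tested fibroblast genes 9 were called higher and 2 lower, 5 and 2 by at least 2-fold. Against most of that list, Vim, an intermediate filament gene of mesenchymal cells, fell by 2.45.

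Germline genes were mostly higher. Of 42 tested 31 were called higher and 6 lower, 25 and 1 by at least 2-fold, and the median was 1.11 (0.98 with trends removed). Taf7l, a germ cell variant of a general transcription factor subunit, was at 0.534, 0.785 and 0.657 CPM in Mock and 19.8, 18.4 and 20.1 CPM in Auxin. Sycp3, of the meiotic chromosome axis, stood at 6.52, 3.61 and 7.6 CPM in Auxin against 0.836 ± 0.111 CPM in Mock, with Auxin replicate 2 the lowest again. Dnd1, an RNA-binding protein of germ cells, was the one member that fell by at least 2-fold (by 1.87). The E-box CACGTG, which is read by the MGA and MAX subunits of a variant PRC1, stood in 15 of 36 matched germline promoters (41.7%), against 8.11% of all. Of the 15, 12 rose at least 2-fold, and of the 21 without it 9 did.

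Subunits of the Polycomb complexes moved little or in both directions. Of the 13 PRC2 subunits listed 4 were called higher and 4 lower. None was at least 2-fold higher and 1, Epop, was at least 2-fold lower, and the list's median changed sign with library totals (-0.06 and 0.15). Of 28 PRC1 subunits 15 were called higher and 10 lower, and 7 were at least 2-fold higher. Bmi1, an alternative to Pcgf2 in canonical PRC1, was at 13.7, 13.3 and 13.8 CPM in Mock and 59.5, 43.3 and 61.0 CPM in Auxin. Phc1, the main polyhomeotic subunit of stem cells, fell by 0.63. DNA methylation enzymes were split, with 7 of 18 called higher and 9 lower, 2 and 5 by at least 2-fold. Uhrf1, which recruits the maintenance methyltransferase, fell from 524.8 ± 9.74 to 132.2 ± 12 CPM and the cofactor Dnmt3l fell by 1.29. The list of H3K4 and H3K36 writers and H3K27 demethylases changed sign, from a median of 0.26 to -0.39, when length and GC trends were removed. Imprinted genes had a median of 0.37 that became -0.01. Of 44 tested, 22 were called higher and 15 lower, 10 and 6 by at least 2-fold. Grb10, which restrains growth factor signalling, rose from 43.1 ± 2.38 to 360.1 ± 2.91 CPM and Igf2r by 2.29. The lowest log2 fold change of that list was -2.73.

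Several cell surface and signalling families had more members higher than lower. The same held over all 21683 protein-coding genes, with 3048 at least 2-fold higher and 1592 lower. Family counts in this paragraph are over all listed members, tested or not, unless tested members are named. Clustered and other protocadherins, adhesion molecules known from neurons and also from studies of promoter silencing, had 40 of 69 members tested and 32 at least 2-fold higher, with 1 lower. Of the 53 that were silent in Mock 21 rose at least 2-fold and 43 had an Auxin mean under 0.1 RPKM. Of the other 16, 11 rose. Silent members were tested largely where Auxin was high, so medians over tested members of such families are descriptions and lean upwards. Pcdhb22 went from 0.414 ± 0.138 to 5.10 ± 0.763 CPM and Pcdhb14 from 0.167 ± 0.00896 to 1.81 ± 0.406 CPM. Many protocadherins share exons or near-identical sequence, so values of single members are uncertain. Orphan and adhesion G-protein coupled receptors had 31 of 100 members at least 2-fold higher and 2 lower, among them Gpr27 (3.55). Collagens had 14 of 44 members at least 2-fold higher and 4 lower, laminins and integrins 14 of 42 and 4 (9 and 4 with trends removed). Axon guidance genes (19 of 67 members higher, 5 lower) and synapse genes (19 of 69 and 2) had medians of 0.47 and 0.67, which were 0.19 and 0.29 with trends removed. Slit2, a secreted guidance cue, rose from 1.73 ± 0.238 to 27 ± 2.55 CPM.

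Of 29 tested genes of the epithelial to mesenchymal transition, 16 were at least 2-fold higher (55.2%) and 1 lower (3.45%). Among all tested genes those shares were 19.8% and 12.0%. Counts in this paragraph are over tested genes. Esrp1, an epithelial splicing factor, was at 5.30, 5.66 and 5.39 CPM in Mock and 75.2, 69.9 and 69.2 CPM in Auxin. The tight junction genes Cldn4 and Cldn7 rose by 2.33 and 2.59, and Cdh1, E-cadherin, rose by 0.35. Hedgehog pathway genes had 7 of 14 at least 2-fold higher (50.0%), with the coreceptor Boc up by 2.61, and 1 lower (7.14%). In the Wnt pathway 14 of 46 fell and 6 rose by at least 2-fold. Notum and Sp5, feedback targets of the pathway, fell by 2.72 and 1.78 and the ligand Wnt5b by 3.21. In the TGF-beta and Nodal list 13 of 40 rose (32.5%) and 5 fell (12.5%) by at least 2-fold. The Nodal inhibitors Lefty1 and Lefty2 fell by 2.45 and 1.70. Clock genes had 11 of 19 at least 2-fold higher (57.9%, and 9 genes with trends removed) and 1 lower (5.26%). The repressors Bhlhe40 and Bhlhe41 rose by 2.89 and 4.18, and Nr1d1, which encodes REV-ERB alpha, fell by 2.89. Genes induced through the aryl hydrocarbon receptor, which indole compounds can activate, had 4 of 10 higher (40.0%) and 2 lower (20.0%) by at least 2-fold. Cyp1a1, the usual reporter of that receptor, went from 0.463 ± 0.0276 to 5.61 ± 0.253 CPM. Its log2 fold change of 3.59 was the highest of that list, and the lowest was -3.69.

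Gene families were also formed blindly from shared symbol stems, giving 190 stems with at least 10 tested members. Over tested members, the highest medians belonged to Pcdhb (2.89), Pcdhga (1.93), Syt (1.59), Abca (1.56), F (1.32) and Rgs (1.2). Syt genes encode synaptotagmins, Abca genes lipid transporters such as Abca3 and Abca5 (both up by 2.98), F genes coagulation factors, their receptors and others that share the stem, and Rgs genes regulators of G-protein signalling. The lowest medians belonged to Myh (-0.92), Lsm (-0.82), Mcm (-0.80), Polr (-0.80), Mrpl (-0.76) and Timm (-0.73). Myh genes encode muscle and nonmuscle myosins and had 4 of 10 at least 2-fold lower. Lsm genes act in RNA processing, Mcm genes in the replicative helicase, Polr genes in RNA polymerases and Timm genes in mitochondrial import. Of 28 Polr genes 26 were called lower, 12 by at least 2-fold and 5 with trends removed. Olfactory and vomeronasal receptors, the largest family of silent genes, had 17 of 1394 members tested. Zinc finger genes of the Zfp symbols had 52 of 378 at least 2-fold higher and 10 lower (19 lower with trends removed), which is under the 19.8% and 12.0% of all genes.

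Classes of noncoding gene differed as well. Antisense genes were at least 2-fold higher in 32.6% and lower in 9.52% of 641 tested, and lincRNA genes in 29.4% and 15.9% of 605. Antisense values are uncertain because the counting used no strand. Processed pseudogenes, which are short and resemble expressed parent genes, were higher in 5.36% and lower in 18.4% of 3113 (167 and 572 genes). With length and GC trends removed this balance turned, with 333 higher and 190 lower, and the median went from -0.38 to 0.07. Across the chromosomes, at least 2-fold rises took between 14.8% (chromosome 7) and 30.7% (chromosome 14) of tested protein-coding genes.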

How the data were processed

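Polyadenylated RNA of the 9 cultures was sequenced as 75 base read pairs, per the labels. The submitters' processing notes name Trim Galore 0.6.10, FastQC 0.12.1, Bowtie2 2.5.3, SAMtools 1.20, featureCounts 2.0.6 and mm10. The deposited values are raw counts per gene, per the file headers, made without strand and with each mate counted. They were not rescaled before testing.

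All 9 libraries entered 1 fit with edgeR 4.0.16 (R 4.3.3): TMM factors, filterByExpr, the quasi-likelihood test of Auxin against Mock, and Benjamini-Hochberg adjustment over all 20838 genes tested. Calls needed an adjusted p under 0.05. On simulated counts with 200 genes changed 2-fold, some raised and some lowered, 72.5% were recovered and 12 of the calls (7.6%) were false. Replicate numbers did not pair the samples. RPKM used exon length in the tables and TMM-scaled totals. Names, biotypes and GC content came from GENCODE M21, and covered 99.2% of genes. RefSeq promoter windows matched 16425 of 21681 protein-coding symbols, and their start can differ from the tables' gene start.

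Members and gene lists (82 lists) were chosen with earlier results of these data known. The rule for names took preset members of each list, the 4 with the largest fold change among those at 1 CPM or more, the 8 highest genes switched on or off, and 2 per described symbol family. The text gives part of the genes this rule names. Named outside it, after their values were seen, were Atf5, Ddit4, Fgf21, Nupr1, Trib3, Herpud1, Eif4ebp1, Xpot, Ppp1r15a, Ggps1, Hoxc4, Hoxc13, Hoxd13, Phc1, Pcgf2, Dnd1 and the synthetases with a motif match. Alternatives were other scalings, filters, tests, trend removals and leaving out each library. Some genes are counted in their lists and not reported here by name.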

Additional observations from a re-analysis of the deposited data

How the results depend on the processing

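The counts of genes called higher, called lower and at least 2-fold higher stayed within 1.5 times under every alternative run. At least 2-fold lower genes (2491) were 1545 with a filter of 1 CPM in 3 libraries and 1544 with glmTreat. Leaving out 1 library at a time gave 7425 to 8478 genes higher, 6956 to 7758 lower, 3875 to 4530 at least 2-fold higher and 2434 to 2831 at least 2-fold lower. Replicate numbers did not deviate together (r between Auxin and Mock of the same number was -0.12, -0.15 and 0.045), and no sample correlated with its own number above 0.1. A replicate block gave 7734 higher, 7074 lower, 4065 at least 2-fold higher and 2477 at least 2-fold lower. Class counts moved with the class rule. Silent genes at least 2-fold higher (1014) were 1740 below 0.5 RPKM and 445 by CPM, and those lower (93) were 32 below 0.05 RPKM, 378 below 0.5 RPKM, 2 by CPM and 61 without genes sharing exons. Low genes were 345 higher and 132 lower with silence below 0.5 RPKM, and high genes 657 higher by CPM. Silent genes that came on (16) were 5, 267 and 9 below 0.05 RPKM, below 0.5 RPKM and without genes sharing exons. Suz12 (0.09) passed at 0.30 with library totals, at -0.24 with length and GC trends removed and at 0.18 without Auxin replicate 2, and did not pass at -0.09 with the length trend alone removed. Its values without 1 library ran from 0.03 to 0.18. None of 124 other named genes changed sign in a call, and 4 of them lost theirs under some alternative. Medians near 0 changed sign. With library totals these were PRC2 subunits (0.15), DNA methylation enzymes (0.01), endoplasmic reticulum chaperones (0.17) and fatty acid genes (0.07). With the length trend removed they were imprinted genes (-0.07, and -0.01 with GC) and H3K4 and H3K36 writers (-0.28, and -0.39 with GC). With the filter of 1 CPM they were PRC2 (0.06), chaperones (0.04), Wnt genes (0.15), histones (0.55) and olfactory receptors (-0.52). Without genes sharing exons they were PRC2 (0.36), chaperones (0.22) and trophoblast genes (0.61, and 0.11 with 6 libraries or halved counts). With 1 library left out PRC2 subunits ran from -0.12 (without Mock replicate 2) to 0.03 (without Mock replicate 1) and other homeobox genes from -0.03 (without Auxin replicate 2) to 0.24 (without Mock replicate 2); homeobox genes were at -0.12 with no filter. The causes were not tested.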
